A study of Mus musculus with 8 samples.

Results

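The genes described here make, modify and burn fatty acids. They are 34 mouse genes chosen by name: enzymes of fatty acid synthesis, elongation and desaturation, acyl-CoA synthetases, the carnitine shuttle, mitochondrial beta-oxidation, the PPAR nuclear receptors with a coactivator and some of their known targets, and proteins of lipid droplets and fatty acid binding. All 34 had a probe on the array, 47 probes in all, and 33 of them were among the 13539 genes tested, a set limited to genes detected (well above background by the scanner's own test) on 4 or more of the 8 arrays. Each of these 33 was detected on all 8, so none entered through 1 medium alone. The remaining gene, Pdk4, a kinase that holds back pyruvate oxidation, was detected on none of them and has no test.

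RNA came from primary spheres grown in RA-free medium or in RA-containing medium, with 4 arrays of each, where RA is retinoic acid. Cells of both media were taken from the superior mesenteric ganglion, a sympathetic ganglion of the abdomen, of mice aged 3 weeks and hemizygous for TH-MYCN on the 129+Ter/SvJcl background, and were cultured for 8 days. TH-MYCN places human MYCN under a tyrosine hydroxylase promoter, so the transgene acts in sympathetic cells, and mice that carry it develop neuroblastoma. The suspension of each ganglion was divided between the media, which pairs the arrays by animal. None of the 8 arrays was of cells without the transgene, and the RA concentration is not given in the sources used here.

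The 75th percentile of processed signal was 235 to 295 intensity units on the RA-free arrays and 228 to 306 on the RA-containing arrays, and all levels below are log2 values relative to that percentile of their own array. All 10 sympathetic neuroblast markers listed, Th among them, were tested. Their mean level was 4.93 to 5.12 on RA-free and 4.57 to 4.89 on RA-containing arrays, with 3 called higher, 3 lower and 4 not called. The RA receptor gene Rarb, itself induced by RA, stood at 2.58 ± 0.18 in RA-free and 4.36 ± 0.04 in RA-containing spheres (SD, n = 4 each). The other RA response genes listed, Dhrs3, Cyp26b1 and Hoxb5, were also called lower in RA-free spheres. Hoxb5 was detected on no RA-free array, so it passed the detection filter through the RA-containing arrays alone. Cyp26b1 was detected on 1 RA-free array, and for it too the RA-containing arrays alone met the filter. The mouse gene Mycn was not called, with a change of −0.18 (SE 0.11, adjusted p = 0.198). On the first principal component RA-free array 1 lay at −42.3, against −59.5 to −66.2 for the other RA-free arrays and 52.3 to 61.3 for the RA-containing ones. All 14 cell cycle genes listed were called higher in RA-free spheres, with a median change of 1.96, and their part in the results below was not tested. Of 10 adipocyte markers, Adipoq, Plin1, Cidec and Lep were detected on no array. The 3 tested, Lipe, Pparg and Ucp1, had a mean level of −2.88 to −2.54 in RA-free and −2.90 to −2.66 in RA-containing spheres. Among them 1 was called higher, 1 lower and 1 not called. Immune markers, 3 of 5 tested called lower, had a mean level of −1.73 to −1.39 in RA-free and −0.79 to −0.13 in RA-containing spheres, with Ptprc, Cd14, Cd79a and Lyz2 detected on no array. Schwann and satellite glia markers, 3 of 8 tested called lower, had −0.77 to −0.28 in RA-free and −0.25 to −0.05 in RA-containing spheres, with Erbb3 among those detected nowhere. Of fibroblast markers 3 were called lower and 2 higher among 7 tested, of endothelium markers 1 was lower among 4, and of adrenal cortex markers 1 was higher among 3. Over all tested genes, 28.2% were called lower and 36.1% higher, and no marker list was tested against these shares. The part of these cell types in the results below was not tested. Spheres hold mixed cells, so fewer cells of a type and less RNA per cell cannot be told apart.

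Fatty acid synthesis builds palmitate from acetyl-CoA in the cytosol, and elongases and desaturases then lengthen it and add double bonds. Oxidation takes place in mitochondria, which long-chain fatty acids enter only as carnitine esters, a step that carnitine palmitoyltransferase 1 limits. The PPAR receptors bind fatty acids and act on DNA as partners of RXR, the receptor that also partners the RA receptors, and many of their known targets serve oxidation and lipid storage. Neuroblasts and other dividing cells need fatty acids for new membranes.

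In RA-free spheres the fatty acid genes chosen here fell more often than they rose. Of the 33 tested, 17 were called lower and 6 higher, where 28.2% of all tested genes were called lower, 36.1% higher and 64.3% in either direction (limma with the animal as a block, adjusted p under 0.05 over all genes). The members were called about as often as other genes, 69.7% of them, and in this main fit the split of directions differed from the background. They were chosen with earlier results of these data known, so that split was not tested. Their median log2 change, RA-free minus RA-containing, was −0.25, beside 0.07 for all tested genes. Most changes were small: the called members had a median size of 0.51, beside 0.66 for all called genes, and 3 members, Cpt1a, Ucp2 and Fabp3, fell by at least 1, a size and call in this direction that 10.6% of tested genes had. The media did not overlap for 18 members, all of them called, where 53.3% of tested genes did not overlap. The median change over the tested members was −0.17, −0.20, −0.29 and −0.21 in animals 1 to 4.

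The counts changed with the scaling and with the animal left out, most under spike-in scaling. Under spike-in scaling, 4 of the 33 tested members were called lower and 2 higher, against 14.3% and 24.2% of all genes. There the members' share called lower did not exceed that of all genes. The processed signal relative to the spike-ins differed between the media by −0.14, −0.29, 0.63 and 0.43 in animals 1 to 4, so it moved in opposite directions in different animals. The 6 members that stayed called were Cpt1a, Ucp2, Fabp3 and Scd1, all lower, and Fads2 and Ppargc1a, both higher, and these were also the 6 members whose calls held under all 14 alternatives. Without animal 4, 10 of the 33 were called lower and 5 higher, against 24.3% and 30.1% of all genes. Without animal 1, 2 or 3, there were 13, 13 and 15 members lower, against 26.1%, 24.1% and 26.5% of genes, and 5, 4 and 6 higher, against 32.7%, 30.2% and 34.4%. Without the block for the animal, 16 were lower and 5 higher, against 26.3% and 33.0% of genes.

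**Figure D1:**
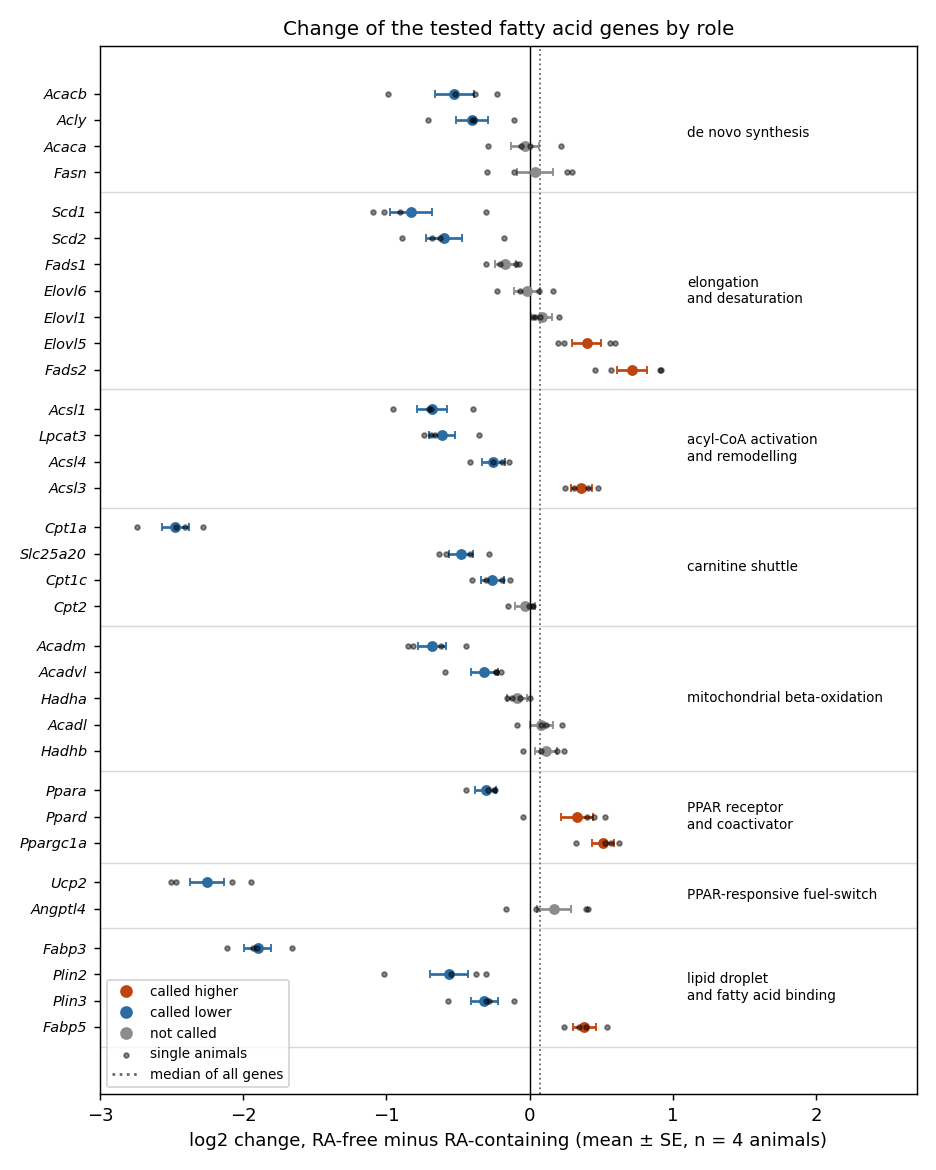
Log2 change (RA-free minus RA-containing, x axis) of the 33 tested members, grouped by role. Large points with bars are the change ± SE over 4 animals, coloured by call, small dots are single animals and the dotted line is the median of all tested genes (0.07). Cpt1a, Ucp2 and Fabp3 lie at −2.47, −2.25 and −1.90, and all other members lie between −0.83 and 0.71.

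The PPAR genes and their coactivator each passed the test, in opposite directions. Ppara encodes the receptor best known for driving oxidation genes in liver and heart, and its brightest probe read −0.59, −0.71, −0.61 and −0.90 on RA-free arrays 1 to 4, against −0.34, −0.47, −0.32 and −0.45 on RA-containing arrays 1 to 4. The media did not overlap, and the change was −0.31 (SE 0.07, adjusted p = 0.0128). The call was lost without animal 4 (−0.26, adjusted p = 0.0662) and under spike-in scaling. The size of this fall depended on the probe.

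Besides that brightest probe, the array held another pair for Ppara under the same RefSeq transcript, NM_011144. Probe A_55_P2055854 read −5.68, −5.59, −6.10 and −4.44 on the RA-free arrays, where it was never well above background, and −1.74, −1.36, −1.39 and −1.26 on the RA-containing arrays, where it always was. Its signal was therefore at least 7.21-fold lower in RA-free spheres (limma over all probes, adjusted p = 0.000178). Probe A_55_P2071596 behaved alike, with −6.78, −6.43, −6.18 and −5.98 in RA-free and −3.61, −4.09, −3.15 and −3.28 in RA-containing spheres, which is at least 1.69-fold lower (adjusted p = 0.000143). Bounds of this kind set the bright medium's mean against the lowest signal that counted as well above background on each dim array, or the probe's own signal where higher. All probes of Ppara fell, by a change of −0.31 for the brightest and by bounds larger than that for the other pair. Each probe of that pair passed the detection filter through the RA-containing arrays alone, so its p-value is not separate from that filter. The positions of the probes within the transcript are not given in the sources used here.

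**Figure D2:**
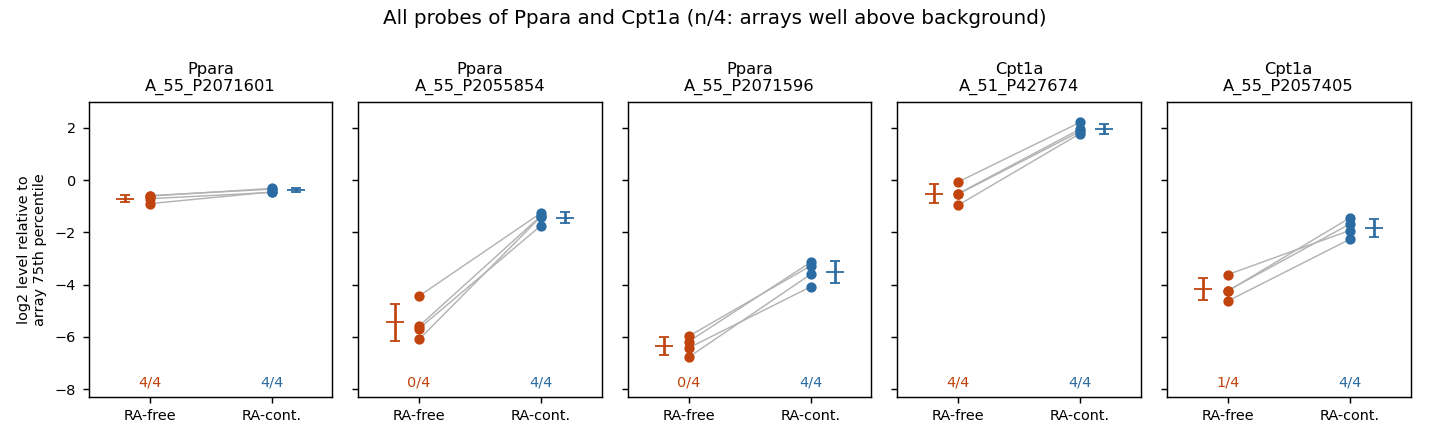
Log2 level relative to the array's 75th percentile (y axis) on every array for the 3 probes of Ppara and both probes of Cpt1a, RA-free left and RA-containing right in each panel, with lines joining cultures of 1 animal and bars giving mean ± SD (n = 4). The figures at the foot count arrays well above background. The brightest Ppara probe differs by −0.31, while the other Ppara probes are well above background on none of the 4 RA-free and all 4 RA-containing arrays. Both Cpt1a probes fall, the dimmer one being well above background on 1 of the 4 RA-free arrays.

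Ppard, the widely expressed relative of Ppara, was higher by 0.33 (SE 0.11, adjusted p = 0.0451), in 3 of 4 animals, with −0.05 in animal 3. The media overlapped, and the call was lost without animal 1, 2 or 4 (adjusted p = 0.130, 0.156 and 0.134) and without the block for the animal (0.0937). It was also lost under spike-in scaling, with the percentile taken over detected probes, with the deposited log2 values and without the filter on dim probes. Ppargc1a, the coactivator PGC-1alpha that drives mitochondrial biogenesis in muscle and brown fat, read −2.12, −2.04, −2.60 and −2.55 in RA-free spheres, against −2.65, −2.66, −2.92 and −3.11 in RA-containing spheres. Every animal had more of it in RA-free medium, by 0.33 to 0.63, and the change was 0.51 (SE 0.08, adjusted p = 0.00256). The other probe of Ppargc1a was detected on no array and has no test. Over the 14 alternatives the change of Ppargc1a ran from 0.21 to 0.67. Ppargc1a and Fads2 were the 2 members called higher under every scaling.

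Among fatty acid binding proteins, which carry fatty acids through the cytosol, Fabp3 and Fabp5 moved apart in the main scaling. Fabp3, the form of heart and muscle, read 1.57, 1.80, 2.24 and 2.28 on RA-free arrays 1 to 4, against 3.68, 3.73, 4.14 and 3.94 on RA-containing arrays 1 to 4. Every RA-free value lay below every RA-containing value, the fall was 3.73-fold (log2 change −1.90, SE 0.09, adjusted p = 8.09e-05), and another probe gave −1.87. Fabp5, known from skin and nervous tissue and able to carry RA as well as fatty acids, read 8.29, 8.46, 8.83 and 8.63 in RA-free spheres, against 7.95, 8.22, 8.29 and 8.24 in RA-containing spheres. Its change of 0.38 (SE 0.08, adjusted p = 0.00744) was positive in all 4 animals and the media just failed to overlap, but the change turned to −0.019 under normexp with quantile normalization and to −0.029 under quantile normalization of the processed signal, where it was not called. A direction for Fabp5 is therefore not settled by these data, whereas that of Fabp3 held under every scaling.

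Long-chain acyl-CoA synthetases activate fatty acids for every later step, and they too were divided. Acsl1, the form tied to oxidation and storage in fat, liver and heart, read 1.81, 1.62, 1.38 and 1.49 in RA-free spheres, against 2.21, 2.57, 2.06 and 2.20 in RA-containing spheres. The media did not overlap, and the change was −0.68 (SE 0.10, adjusted p = 0.00235), with −0.70 by its other probe. Acsl3, which sits on the endoplasmic reticulum and on young lipid droplets, rose by 0.36 (SE 0.07, adjusted p = 0.00753), in every animal by 0.24 to 0.48. Acsl4, which prefers arachidonate, was lower by a change of −0.25 (SE 0.08, adjusted p = 0.0314), lost without animal 1, 2 or 4 (adjusted p = 0.0860, 0.126 and 0.0805). The Acsl4 call was also lost with scaling to the array median and without the filter on dim probes. Lpcat3, which inserts polyunsaturated acyl chains into phospholipids, read 0.61, 0.14, −0.12 and 0.12 in RA-free and 0.96, 0.80, 0.62 and 0.81 in RA-containing spheres, a change of −0.61 (SE 0.09, adjusted p = 0.00208). Under spike-in scaling none of these 4 passed, with changes of −0.53, 0.52, −0.10 and −0.45 in the order above.

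De novo synthesis held 4 members, of which 2 fell and 2 were not called. Acly, which splits citrate to give cytosolic acetyl-CoA, read 5.37, 5.08, 4.80 and 4.84 in RA-free spheres, against 5.49, 5.48, 5.51 and 5.24 in RA-containing spheres. The media overlapped through RA-free array 1, and the change was −0.40 (SE 0.11, adjusted p = 0.0204), lost without animal 2 or 4 (0.0665 and 0.0636), while its other probe gave −0.02 and did not pass. The Acly call was also lost under spike-in scaling and with the mean over its probes. Acacb, the acetyl-CoA carboxylase at the mitochondrial surface whose product inhibits carnitine palmitoyltransferase 1, was lower in all 4 animals by 0.22 to 0.99, with a change of −0.53 (SE 0.14, adjusted p = 0.0169), lost without animal 4 (0.0531). Acaca, the cytosolic carboxylase that commits acetyl-CoA to synthesis, had a change of −0.03 (95% interval −0.28 to 0.22) by its brightest probe. Another of its probes passed with 0.43 and the remaining one gave −0.35 without passing, so the probes of Acaca disagree in sign. Fasn, the fatty acid synthase itself, had a change of 0.04 (95% interval −0.27 to 0.34) with 2 animals up and 2 down, so a change of more than 0.34 either way lay outside its interval.

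Stearoyl-CoA desaturases, which place the first double bond of oleate, were lower in RA-free spheres. Scd1 read 0.51, −0.06, −0.75 and −0.51 on RA-free arrays 1 to 4, against 0.81, 0.85, 0.34 and 0.51 on RA-containing arrays 1 to 4. Scd2, the main form of the mouse nervous system, read 6.24, 5.61, 5.24 and 5.54 in RA-free and 6.42, 6.30, 6.14 and 6.17 in RA-containing spheres. In both genes RA-free array 1 lay within the RA-containing range and the other RA-free arrays lay below it. The changes were −0.83 for Scd1 (SE 0.15, adjusted p = 0.00396) and −0.60 for Scd2 (SE 0.13, adjusted p = 0.00816), negative in all 4 animals. Fads2, the desaturase that starts the conversion of essential fatty acids to long polyunsaturated ones, went the other way, at −1.05, −1.25, −1.54 and −1.54 in RA-free spheres, against −1.97, −1.71, −2.45 and −2.11 in RA-containing spheres. Its media did not overlap and its rise of 1.64-fold (log2 change 0.71, SE 0.11, adjusted p = 0.00222) was the largest increase among the members. Fads1, which acts after Fads2 in the same conversion and lies beside it on the chromosome, had a change of −0.17 (95% interval −0.36 to 0.02) and passed as lower under 3 of the other scalings.

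Of the elongases, Elovl5, which lengthens polyunsaturated chains, rose by 0.40 (SE 0.10, adjusted p = 0.0153), in animals 1 to 4 by 0.24, 0.56, 0.60 and 0.20. The media did not overlap, and the call was lost without animal 2 (0.34, adjusted p = 0.0656). Elovl6, which turns palmitate into stearate, and Elovl1, which makes very long saturated chains, had changes of −0.02 (95% interval −0.24 to 0.20) and 0.08 (95% interval −0.09 to 0.26) and were not called. Elovl1 was called lower under normexp with quantile normalization (−0.17, adjusted p = 0.0369).

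Most of the 11 members of synthesis, elongation and desaturation were ordered alike among the RA-free arrays. RA-free array 1 had the highest value of them for 9 of the 11 and RA-free array 3 the lowest for 8, while Elovl1 and Elovl5 ran the other way, with array 1 lowest and array 3 highest. Averaged over the 11, RA-free arrays 1 to 4 lay 0.30, 0.05, −0.22 and −0.13 from their medium's mean, and RA-containing arrays 1 to 4 lay 0.09, 0.10, −0.09 and −0.10 from theirs. Of the 9 carnitine and oxidation members RA-free array 1 was highest for 2, Cpt1a and Acadl, and lowest for 4, and the difference between these gene groups was not tested. RA-free array 1 was also the RA-free array nearest to the RA-containing ones on the first principal component, at the score given above. This pattern was noticed in the data and was not tested.

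**Figure D3:**
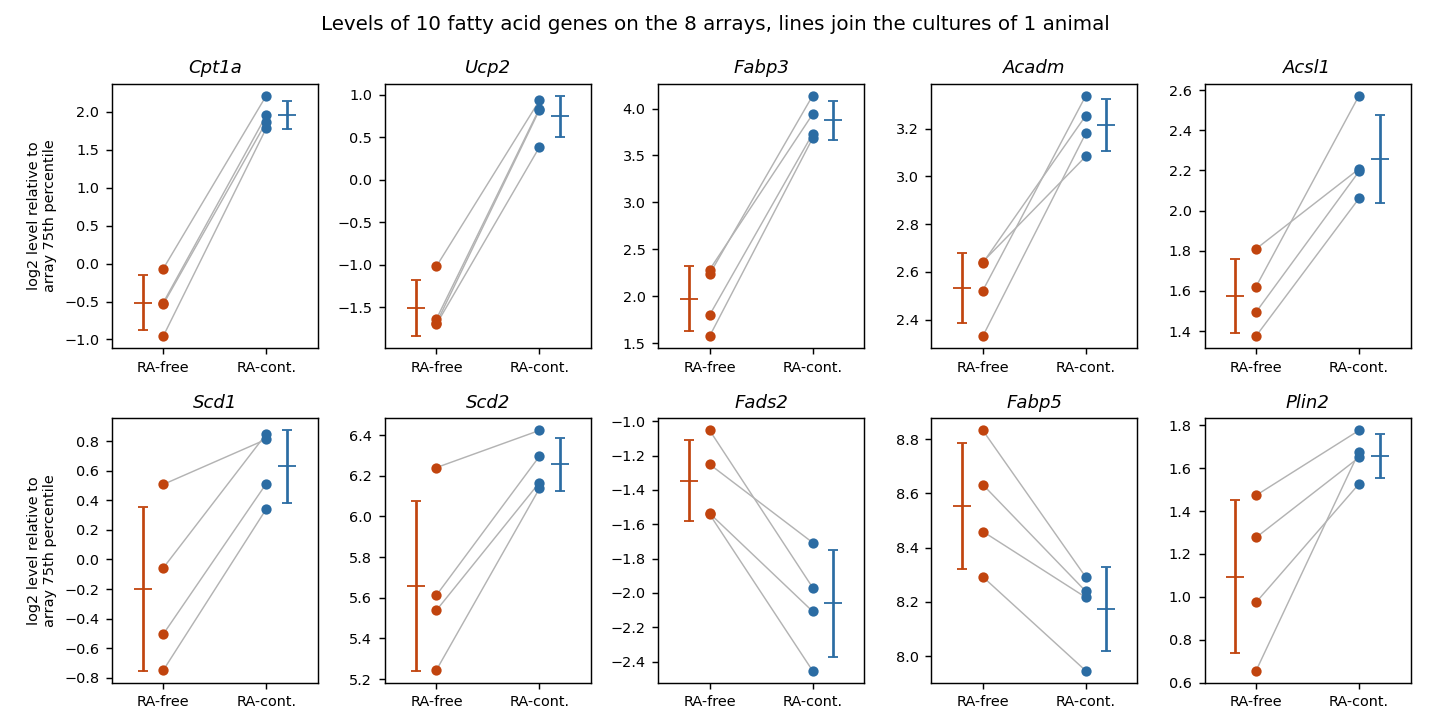
Log2 level relative to the array's 75th percentile (y axes, each gene on its own scale) of 10 members on the 8 arrays, RA-free left and RA-containing right, lines joining cultures of 1 animal, bars giving mean ± SD (n = 4). RA-free and RA-containing points do not overlap except in Scd1 and Scd2, where RA-free array 1 (0.51 and 6.24) reaches the RA-containing range, and in Fabp5 the nearest points of the media both round to 8.29.

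The carnitine shuttle, which moves long-chain fatty acids into mitochondria, held the member with the largest change. Cpt1a, the carnitine palmitoyltransferase 1 of most tissues and the step that limits oxidation, read −0.07, −0.54, −0.96 and −0.51 on RA-free arrays 1 to 4, against 2.22, 1.87, 1.79 and 1.96 on RA-containing arrays 1 to 4. The media were far apart, and each animal fell by 2.28 to 2.74. This was a 5.56-fold fall (log2 change −2.47, SE 0.10, adjusted p = 5.34e-05), and the other probe of Cpt1a, detected on 1 of 4 RA-free arrays, gave −2.35. For that other probe the RA-containing arrays alone met the detection filter, so its value is not separate from that filter. Cpt1c, a neuronal relative found on the endoplasmic reticulum, had a change of −0.26 (SE 0.08, adjusted p = 0.0283) that lost its call when any 1 animal was left out (adjusted p from 0.0557 to 0.117). The Cpt1c call was also lost under spike-in scaling, with scaling to the array median and without the filter on dim probes. Slc25a20, the carrier that passes acylcarnitine across the inner membrane, was lower by 0.29 to 0.63 in every animal, with a change of −0.48 (SE 0.09, adjusted p = 0.00445). Cpt2, which releases the acyl group inside, had a change of −0.03 (95% interval −0.21 to 0.14) by its brightest probe and −0.88 by a dimmer one, which passed but was detected on just 2 RA-free arrays. The RA-containing arrays alone met the filter for that dimmer probe too.

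Of the 5 members of the beta-oxidation spiral, 2 dehydrogenases were called lower and 3 members were not called. Acadm, the medium-chain acyl-CoA dehydrogenase, read 2.33, 2.64, 2.64 and 2.52 in RA-free spheres, against 3.18, 3.26, 3.08 and 3.34 in RA-containing spheres. The media did not overlap, and the fall was 1.60-fold (log2 change −0.68, SE 0.09, adjusted p = 0.00164). Acadvl, the very-long-chain enzyme, was lower by a change of −0.32 (SE 0.09, adjusted p = 0.0263) without overlap of the media, lost without animal 1, 2 or 4 (adjusted p = 0.0539, 0.0551 and 0.0647). The Acadvl call was also lost under spike-in scaling and without the filter on dim probes. Acadl, the long-chain enzyme, and Hadha and Hadhb, the subunits of the trifunctional protein that completes each round for long chains, were not called, with changes of 0.08, −0.09 and 0.11 and 95% intervals within −0.26 and 0.31. A fall the size of that of Acadm lay outside all 3 intervals, and Hadha was called lower with the percentile taken over detected probes (−0.20, adjusted p = 0.0488).

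Of the genes often induced by PPARs when cells turn to fatty acids, Ucp2 fell and Angptl4 did not pass. Ucp2, an uncoupling protein relative of the inner mitochondrial membrane, read −1.02, −1.64, −1.68 and −1.70 on RA-free arrays 1 to 4, against 0.93, 0.84, 0.82 and 0.38 on RA-containing arrays 1 to 4. The fall was 4.76-fold (log2 change −2.25, SE 0.12, adjusted p = 9.59e-05), in every animal by 1.95 to 2.50, and RA-free array 1 was the least low. Angptl4, a secreted inhibitor of lipoprotein lipase, had a change of 0.17 (95% interval −0.13 to 0.47), with −0.17 in animal 1 and 0.40 in animals 3 and 4, and Pdk4 gave no level above background in either medium.

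The lipid droplet coats were called lower in the main fit. Plin2, which covers droplets in most cells and is itself a PPAR target in several tissues, read 0.66, 0.97, 1.47 and 1.28 in RA-free spheres, against 1.68, 1.53, 1.78 and 1.65 in RA-containing spheres. The media did not overlap, the change was −0.56 (SE 0.13, adjusted p = 0.0128), and single animals ranged widely, from −1.02 in animal 1 to −0.30 in animal 3. Plin3, a coat protein that also resides in the cytosol, had a change of −0.32 (SE 0.09, adjusted p = 0.0287) with overlapping media, lost without animal 1, 3 or 4 (0.0892, 0.0649 and 0.0810) and without the block for the animal (0.0501). The Plin3 call was also lost under spike-in scaling, with scaling to the array median and without the filter on dim probes. Plin2 lost its call under spike-in scaling.

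Promoter windows of the members that fell most, Cpt1a, Ucp2 and Fabp3, and of Acadm, the member of the spiral with the largest change among the 5 listed, are shown because the receptors named above act through short sites in such regions. They are the 250 bases before the start of each gene from RefSeq, build GRCm38.p6, 5′ to 3′ on the gene's strand: Cpt1a at chr19:3323051-3323300 (plus), Acadm at chr3:153944644-153944893 (minus), Ucp2 at chr7:100493108-100493357 (plus) and Fabp3 at chr4:130308488-130308737 (plus). Capitals mark TGACCT, the reverse complement of the nuclear receptor core site AGGTCA, in Cpt1a and Acadm. They also mark a CCAAT box in Cpt1a, and TCACGCCAC, a match to the sterol element TCACNCCAC, in Ucp2. Fabp3 held none of the motifs searched.
Cpt1a: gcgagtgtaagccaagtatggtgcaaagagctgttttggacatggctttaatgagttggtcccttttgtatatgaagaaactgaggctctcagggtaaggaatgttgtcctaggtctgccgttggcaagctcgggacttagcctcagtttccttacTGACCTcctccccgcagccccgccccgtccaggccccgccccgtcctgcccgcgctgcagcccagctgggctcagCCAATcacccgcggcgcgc
Acadm: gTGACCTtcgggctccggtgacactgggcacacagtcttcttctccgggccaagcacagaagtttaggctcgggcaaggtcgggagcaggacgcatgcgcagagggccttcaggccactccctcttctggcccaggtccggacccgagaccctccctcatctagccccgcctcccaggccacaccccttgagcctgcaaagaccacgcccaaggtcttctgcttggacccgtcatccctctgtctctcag
Ucp2: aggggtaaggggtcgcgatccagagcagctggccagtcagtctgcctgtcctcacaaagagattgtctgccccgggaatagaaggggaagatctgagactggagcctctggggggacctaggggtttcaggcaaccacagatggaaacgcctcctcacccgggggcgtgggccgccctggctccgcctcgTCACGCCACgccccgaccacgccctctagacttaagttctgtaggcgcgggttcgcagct
Fabp3: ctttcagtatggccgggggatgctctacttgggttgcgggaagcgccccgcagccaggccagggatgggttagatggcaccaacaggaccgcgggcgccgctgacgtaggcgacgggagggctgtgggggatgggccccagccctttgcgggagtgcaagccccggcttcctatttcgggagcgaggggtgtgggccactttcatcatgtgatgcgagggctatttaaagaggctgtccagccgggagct

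Of the 34 members, 29 had a promoter window in the RefSeq table, and both strands of each were searched. The core site AGGTCA was found in 8 of 29 (27.6%), namely Acly, Elovl1, Elovl6, Cpt1a, Cpt1c, Acadm, Acadvl and Plin2, and in 15.8% of 27025 genes. Of these 8 genes, 6 were called lower and none higher, while Elovl1 and Elovl6 were not called. Among the tested members 51.5% were called lower, and among all tested genes 28.2%. No test was made of the count of 6. Of those 6, Cpt1a alone stayed called under spike-in scaling, and Acly, Acadvl and Cpt1c also lost their calls without certain single animals. The paired forms AGGTCANAGGTCA, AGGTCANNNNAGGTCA and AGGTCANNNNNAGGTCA, which contain the core site, were in none of the members and in at most 0.0407% of genes. The sterol element TCACNCCAC was in Acsl1 and Ucp2 (1.22% of genes), the E-box CACGTG in Elovl5 (6.86% of genes), and CCAAT in 13 of the 29 (37.5% of genes). A match describes letters in this window and no more.

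Other genes of the same pathways, from lists that complement the members, were tested in the same fit. Their counts stand against the 28.2% of all tested genes called lower and the 36.1% called higher, and no test set a list apart from other genes. Of 29 tested lipogenesis genes beyond the members, 10 were called lower and 4 higher, with a median change of −0.14, and the share called lower was near that of all genes. Me1, the malic enzyme that makes cytosolic NADPH, stood at 0.39 ± 0.23 in RA-free and 2.05 ± 0.21 in RA-containing spheres (SD, n = 4 each), a change of −1.66 (SE 0.14, adjusted p = 0.000279), with −2.01 and −1.61 by its other probes. Slc25a1, which exports citrate from mitochondria, had a change of −1.45 (SE 0.14, adjusted p = 0.000508) and Acss2, which makes acetyl-CoA from acetate, one of −1.21 (SE 0.18, adjusted p = 0.00236). Lpin1, a phosphatidate phosphatase of lipid storage, fell by 0.92 on the log2 scale (adjusted p = 0.00159).

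Among 27 tested oxidation genes beyond the members, 9 were called lower and 3 higher, with a median of −0.17, beside 28.2% lower and 36.1% higher over all tested genes. Ehhadh, the bifunctional enzyme of peroxisomal oxidation and a PPAR target in rodent liver, was at least 2.74-fold lower (adjusted p = 0.00111). It was detected on all 4 RA-containing arrays but on no RA-free array. It thus passed the detection filter through the RA-containing arrays alone, and its call is not separate from that filter. Crat, carnitine acetyltransferase, and Acad11, an acyl-CoA dehydrogenase, had changes of −1.02 and −0.92 (adjusted p = 0.00191 and 0.000462).

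Of 34 genes of fatty acid uptake, binding and droplets, 23 were tested, 10 called lower and 6 higher, with a median of −0.25. Slc27a6, a fatty acid transport protein, had a change of −2.44 (SE 0.12, adjusted p = 8.49e-05) and was detected on 2 RA-free arrays. Plin5, a droplet coat of oxidative tissue, had one of −2.34 (SE 0.49, adjusted p = 0.00772) and was detected on 1 RA-free array. For Slc27a6 and Plin5 the 4 RA-containing arrays alone met the detection filter, so their calls are not separate from that filter. Mgll, monoacylglycerol lipase, had a change of −1.14 (SE 0.16, adjusted p = 0.00155). G0s2, an inhibitor of triglyceride lipolysis, rose by 1.02 (SE 0.22, adjusted p = 0.00943), with overlapping media, at −2.55 ± 1.02 in RA-free and −3.57 ± 0.60 in RA-containing spheres, a call lost without the block for the animal (adjusted p = 0.10).

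Regulators of lipogenesis moved in both directions, with 5 of 18 called lower, 4 higher, 9 not called and a median of 0.02. Srebf1 and Srebf2, the sterol regulatory factors that drive synthesis genes, were not called, with changes of 0.14 (95% interval −0.26 to 0.53) and 0.22 (95% interval −0.05 to 0.50). Subunits of AMP-activated kinase, which restrains synthesis and favours oxidation, were among the called genes: Prkaa2 and Prkab2 had changes of −1.01 and −0.79 (adjusted p = 0.00130 and 0.00141), and Prkab1 rose by 0.45 (adjusted p = 0.00812). Nr1h3, the LXR alpha receptor gene, was at least 1.23-fold lower by a probe detected on no RA-free array (adjusted p = 0.0213). That probe passed the detection filter through the RA-containing arrays alone, and its call was lost without animal 3 or 4 (0.0571 and 0.0801). The other probe of Nr1h3, detected on 1 RA-free array, had a change of −0.92, and for it too the RA-containing arrays alone met the filter.

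Of 15 tested partners of the nuclear receptors, 5 were called lower and 2 higher, with a median of −0.14, beside 28.2% and 36.1% of all tested genes. Pparg, the receptor that directs fat cell formation, stood at −1.39 ± 0.15 in RA-free and −2.33 ± 0.18 in RA-containing spheres, a rise of 0.94 (SE 0.09, adjusted p = 0.000372) in all 4 animals. Esrrg and Ncoa3, an estrogen-related receptor (detected on 1 RA-free array) and a coactivator, had changes of −1.12 and −0.63 (adjusted p = 0.00278 and 0.00305). For Esrrg the 4 RA-containing arrays alone met the detection filter, so its call is not separate from that filter. Lpin1, named above, is also on this list. The PPAR genes thus differed in direction in the main fit, with Ppara called lower and Ppard and Pparg called higher. The Ppard call was lost under 8 of 14 alternatives, and that of Ppara under spike-in scaling and without animal 4.

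**Figure D4:**
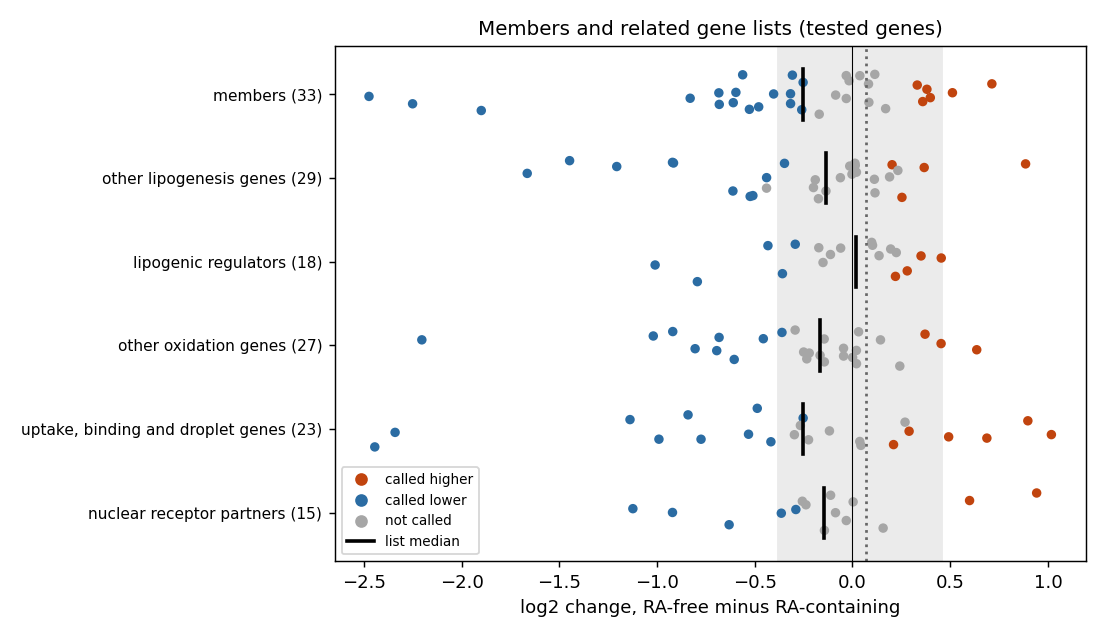
Log2 change (RA-free minus RA-containing, x axis) of each tested gene among the members and in 5 related lists, with numbers tested in brackets. Points are genes coloured by call, black bars are list medians, the grey band spans the middle quartiles of all tested genes (−0.38 to 0.46) and the dotted line is their median (0.07). The list medians run from −0.25 for the members to 0.02 for the lipogenic regulators.

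The choice of scaling moved the level of all changes. Over all genes tested, the median change stood at 0.07 in the main scaling, 0.23 with the spike-ins, 0.13 with the array median and −0.04 with the percentile taken over detected probes, and the median of the members lay 0.32 below it each time, since these scalings shift every gene of an array alike. Under the quantile methods, which do not, the members' median lay 0.24 and 0.29 below that of all genes.

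**Figure D5:**
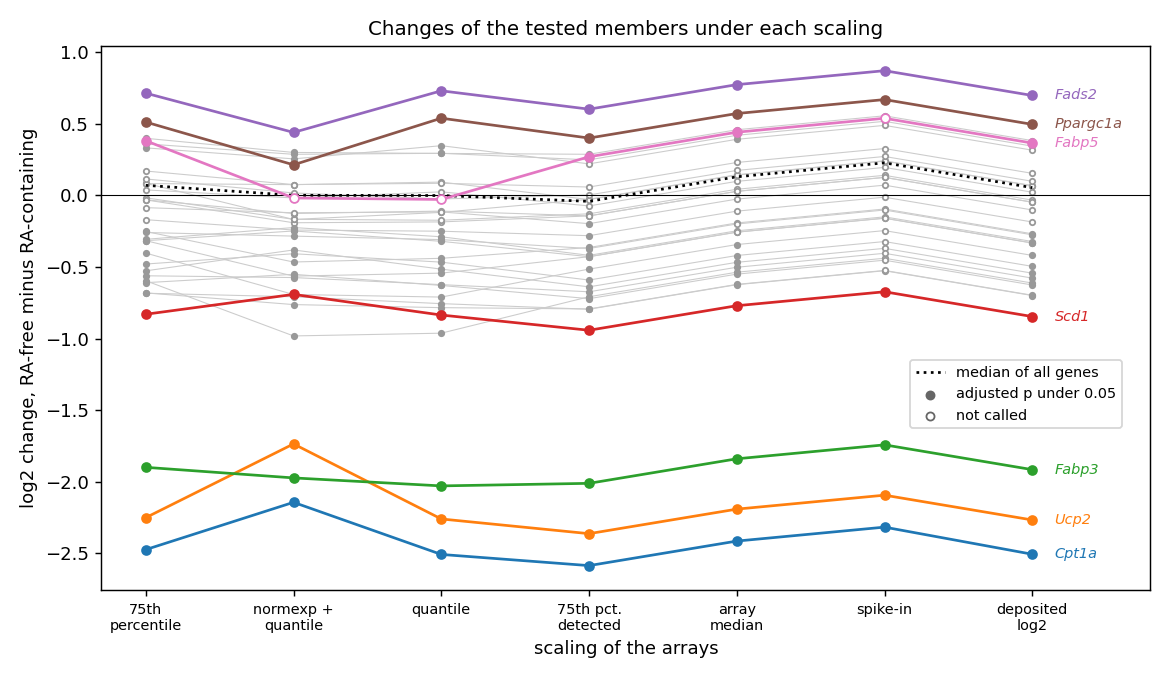
Log2 change (RA-free minus RA-containing, y axis) of the 33 tested members under the main scaling by the 75th percentile and 6 others (x axis). Each line is a gene, filled points passed at an adjusted p under 0.05 and open points did not, and the dotted line is the median of all tested genes. Cpt1a, Ucp2, Fabp3, Scd1, Fads2 and Ppargc1a passed under each scaling, while Fabp5 was at −0.019 and −0.029 under the quantile methods.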

How the data were processed

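Per the file headers, the authors scanned 8 one-colour Agilent arrays (design 028005, annotation mm9) on 1 slide in 1 scan and extracted spot intensity with Feature Extraction 11.5.1.1, background-subtracted and detrended within each array. A deposited table gives the same arrays as log2 values centred per probe, which matched the scanner values (lowest r = 0.9999), and its column medians were −0.07, 0.01, 0.17 and 0.20 for RA-free and −0.23, −0.22, 0.02 and −0.01 for RA-containing replicates 1 to 4. Its exact scaling stays unknown. The deposited flags for outlier spots and for signal well above background were used, and no non-control spot was saturated.

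Outlier spots were left out, log2 intensity was scaled to each array's 75th percentile, and spots of a probe were averaged. Probes were named by accession through a RefSeq table of GRCm38.p6, where 27235 of 55681 matched a symbol, and the brightest probe per gene was kept among those well above background on at least 4 arrays. RA-free minus RA-containing was tested two-sided in limma 3.58.1 (R 4.3.3), with a fixed term per animal and p-values adjusted by Benjamini-Hochberg across the 13539 genes. The fit was checked on simulated data, whose changes were larger than most called here and were in far fewer genes. That check does not cover small changes. Pairing comes from the series design, and same-numbered arrays deviated together (r = 0.52, 0.30, 0.19 and 0.33). The number of arrays limits the precision. Slide rows 1 and 2 each held 2 animals in both media, so the block covers them, but RA-free arrays lay in slide columns 2 and 4 and RA-containing arrays in columns 1 and 3, so column and medium cannot be told apart. Members and lists were chosen with earlier results of these data known, and no set test was run. From the related lists, up to 4 called genes with the largest change were named, with Srebf1 and Srebf2 added after their values were seen, and 1 gene that the rule names is not reported here. Normexp used the median signal, since the files hold no mean signal column.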

Additional observations from a re-analysis of the deposited data

Results flagged for a closer look

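Among the 114 gene and medium groups of 4 arrays examined, 8 held a value far from the other 3 by Dixon's test, where chance gives about 1 in 20. Levels are log2 values relative to the array's 75th percentile. RA-free array 1 was the highest for Ucp2, at −1.02 with the next at −1.64, and for Me1, at 0.73 with the next at 0.30, and the lowest for Rarb, at 2.31 with the next at 2.65. Cpt2 was low in both cultures of animal 1, at 2.44 on the RA-free array (next 2.94) and 2.59 on the RA-containing array (next 2.93). RA-free array 3 was the lowest for Cpt1c, at 1.08 (next 1.21). RA-containing array 4 was the lowest for Acly, at 5.24 (next 5.48), and RA-containing array 3 the highest for Plin5, at −1.61 (next −2.18).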

How the results depend on the processing

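Each result was recomputed under 14 alternatives. Of the 23 called members, 6 kept their call under all of them, 7 lost it under spike-in scaling alone, and 17 lost it there in all. Spike-in scaling gave 5212 genes called, 1931 of them lower, with 4 members lower, 2 higher and a members' median of −0.10. That median was −0.36 with the 75th percentile of detected probes and −0.19 with the array median. Leaving out 1 animal gave 10 to 15 members lower, 4 to 6 higher, and medians of −0.26 to −0.20. Without the replicate block for the pairing by animal, 8022 genes were called, with 16 members lower and 5 higher. Ppard, Plin3, G0s2 and Nr1h3 lost their calls there (Nr1h3 at an adjusted p of 0.111), and no other named gene did.

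Signs turned for Fabp5 (−0.019 under normexp with quantile normalization, −0.029 under quantile normalization) and for members that were not called. Acaca turned to 0.028 with the array median, 0.12 with spike-ins and 0.015 as the mean of probes. Fasn turned to −0.019 under normexp with quantile normalization and −0.074 with detected probes. Elovl1 turned to −0.17, −0.12 and −0.028 under normexp with quantile normalization, quantile normalization and detected probes. Elovl6 turned to 0.042 and 0.14, and Cpt2 to 0.028 and 0.13, with the array median and spike-ins. Acadl turned to −0.030 with detected probes, Hadha to 0.071 with spike-ins and Hadhb to −0.026 under quantile normalization. With 1 animal left out, Acaca ranged from −0.12 to 0.054, Fasn from −0.048 to 0.15, Elovl6 from −0.077 to 0.054 and Cpt2 from −0.049 to 0.0092. The causes were not tested. Dim probes, such as those of Ehhadh, Plin5 and the dimmer Ppara pair, limit sizes near background.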
